A study of Mus musculus with 12 samples.

Results

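The B cell receptor complex and its surrogate light chain were examined as 9 genes: Cd79a, Cd79b, Vpreb1, Igll1, Ms4a1, Cd22, Blk, Btk and Blnk. The regions described were the rows of a list of open chromatin peaks in which one of these genes was named as the gene with the nearest promoter. This gave 42 of the 84243 peaks in the list, which named 19040 genes in all. Of the 9 genes, 8 were named by at least 1 peak. The peaks came from ATAC-seq, in which a transposase inserts sequencing adapters where DNA is accessible. The assay was run on 12 samples, 2 replicates of each of 6 cell types sorted from wild-type C57BL/6 mice aged 8 to 12 weeks. The cell types were hematopoietic stem cells (HSCs), megakaryocyte progenitors (MkPs), erythroid progenitors (EPs), granulocytes and macrophages (GMs), B cells and T cells. The study's methods describe isolation of hematopoietic cells from bone marrow and name no other tissue. No group carried a treatment or an altered allele. The list was 1 table pooled over all 12 samples and held no value for a sample or a cell type. It therefore could not tell in which of the 6 cell types a peak was open, the labelled cell types could not be checked against marker genes, the depth behind a peak was unknown, and no value had an error between replicates. All counts are descriptions of the pooled list, without a test.

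A B cell recognises antigen with a membrane immunoglobulin that cannot signal alone and is bound to a heterodimer of CD79A and CD79B, whose cytoplasmic tails carry the activation motifs. Before a light chain has been rearranged, the precursor B cell pairs its new heavy chain with a surrogate light chain made of VPREB1 and IGLL1 (lambda 5), which forms the pre-B cell receptor. Kinases of the Src family such as BLK phosphorylate the tails, the adaptor BLNK then brings the Tec family kinase BTK to its substrates, and the surface protein CD22 dampens the signal through phosphatases. MS4A1 (CD20) is a membrane protein of B cells.

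A peak was called a promoter peak where its centre lay within 500 bp of the annotated transcription start site (TSS), and a distal peak otherwise. Of the 42 peaks, 8 were promoter peaks and 34 were distal. A promoter peak was found for 7 of the 9 genes, against 54.8% of the 21000 protein-coding genes of RefSeq, and at least 1 distal peak for 8 of 9, against 65.6%. At least 1 peak of either kind was found for 8 of 9 genes, against 77.3%. Promoter peaks made up 19.0% of the members' peaks and 15.6% of all peaks. Vpreb1 had no peak of its own and Btk had distal peaks only, and these 2 genes stood apart from the other 7. The farthest centre counted as a promoter peak was that of Blnk, 249 bp from the TSS, and the nearest one counted as distal was a peak of Cd79a at 1040 bp.

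**Figure D1:**
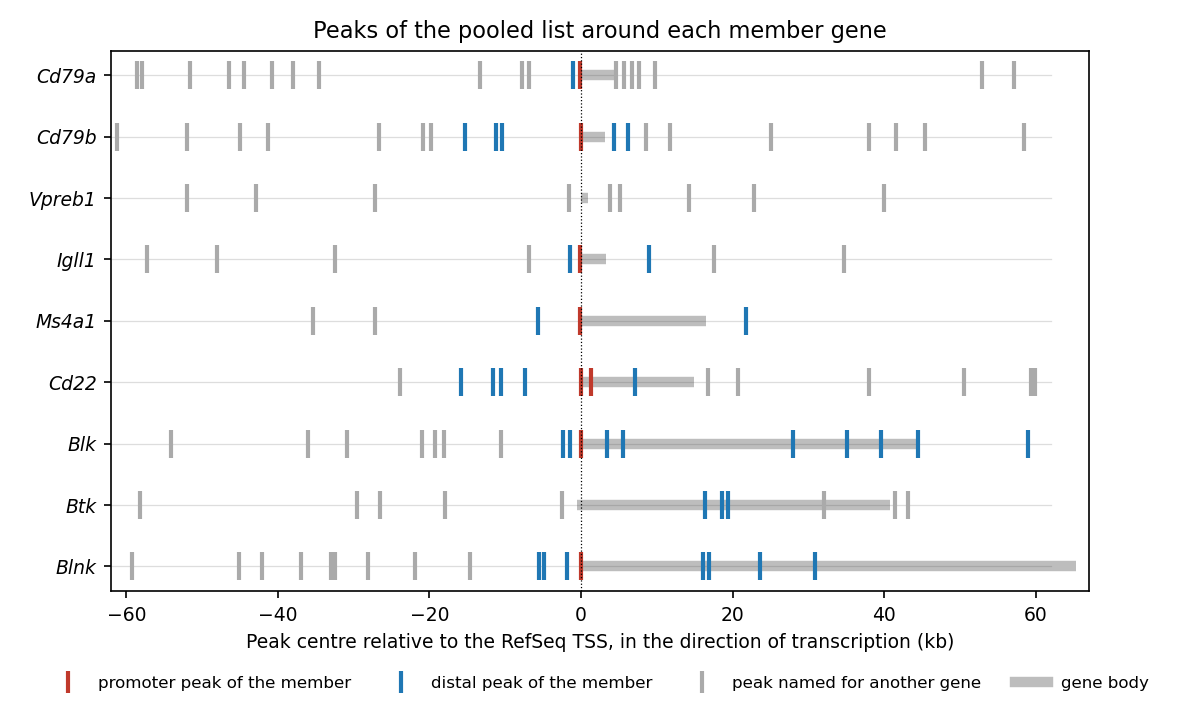
Peaks of the pooled list around each of the 9 genes. The horizontal axis is the position of the peak centre from the RefSeq Select TSS of the gene in kb, positive in the direction of transcription. Red marks are promoter peaks and blue marks distal peaks named for the gene, grey marks are peaks named for another gene, and grey bars are gene bodies. No mark of its own lies beside Vpreb1, and the 3 marks of Btk lie within the gene.

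The upstream sequences of 5 of the genes are shown. Of these windows, 3 lay wholly within a promoter peak (Cd79a, Igll1 and Cd22) and 2 held no base of any peak (Vpreb1 and Btk). The window of Blnk also lay wholly within its promoter peak, but only the bases around its octamer are printed, with that gene. Each is the 250 bases before a RefSeq start site, read 5′ to 3′ on the strand of the gene in GRCm38.p6 (mm10), and capitals mark exact matches to the motifs searched, which are described with the motif counts. For Cd22 the start site is that of the shorter transcript, so its window lies inside the gene body. The windows were chr7:24897247-24897496 on the plus strand (Cd79a), chr16:16863986-16864235 on the minus strand (Igll1), chr7:30879029-30879278 on the minus strand (Cd22), chr16:16869256-16869505 on the minus strand (Vpreb1) and chrX:134583141-134583390 on the minus strand (Btk).
Cd79a: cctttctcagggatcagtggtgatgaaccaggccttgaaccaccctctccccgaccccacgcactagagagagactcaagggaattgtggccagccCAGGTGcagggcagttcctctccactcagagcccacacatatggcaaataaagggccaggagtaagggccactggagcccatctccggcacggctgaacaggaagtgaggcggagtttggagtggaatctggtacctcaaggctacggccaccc
Igll1: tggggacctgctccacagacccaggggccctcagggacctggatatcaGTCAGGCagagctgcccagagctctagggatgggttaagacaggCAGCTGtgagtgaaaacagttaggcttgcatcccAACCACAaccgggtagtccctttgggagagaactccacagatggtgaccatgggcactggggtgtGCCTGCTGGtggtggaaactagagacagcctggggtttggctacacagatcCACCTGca
Cd22: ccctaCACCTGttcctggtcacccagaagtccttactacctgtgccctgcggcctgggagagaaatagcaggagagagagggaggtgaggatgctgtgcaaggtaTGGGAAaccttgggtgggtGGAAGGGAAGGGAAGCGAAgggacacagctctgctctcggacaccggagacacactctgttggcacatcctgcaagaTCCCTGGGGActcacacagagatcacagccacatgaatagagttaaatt
Vpreb1: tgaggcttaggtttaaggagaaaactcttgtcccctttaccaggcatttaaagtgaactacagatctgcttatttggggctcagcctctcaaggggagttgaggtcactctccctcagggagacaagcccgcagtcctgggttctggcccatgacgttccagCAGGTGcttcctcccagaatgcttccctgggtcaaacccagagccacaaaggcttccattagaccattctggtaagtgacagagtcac
Btk: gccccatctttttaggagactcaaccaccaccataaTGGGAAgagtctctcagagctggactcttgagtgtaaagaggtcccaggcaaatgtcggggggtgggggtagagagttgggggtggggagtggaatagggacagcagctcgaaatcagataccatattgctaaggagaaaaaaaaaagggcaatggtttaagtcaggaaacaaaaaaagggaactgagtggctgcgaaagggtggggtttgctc

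Positions in these windows are counted upstream from the start site. In the window of Cd79a the single match was an E-box, CAGGTG, at 154 bp. The window of Igll1 held 5 matches, a PAX5-type match at 202 bp, the E-box CAGCTG at 158 bp, a RUNX-type match at 124 bp, a CTCF-type match at 59 bp and the E-box CAGGTG on the opposite strand at 8 bp. The window of Cd22 held 7 matches, among them 3 overlapping ETS-IRF composite matches that began at 126, 121 and 116 bp and an EBF1-type site that was matched on both strands at 49 and 48 bp. The windows outside any peak were not empty of matches: that of Vpreb1 held CAGGTG at 88 bp, and that of Btk held an Ikaros-type match at 214 bp.

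Both components of the surrogate light chain are encoded on chromosome 16, on the minus strand, but only Igll1 was named by peaks. Igll1 (chr16:16860671-16863985) had 3 peaks. Its promoter peak, chr16:16863847-16864345, was centred 111 bp upstream of the TSS. A distal peak was centred 8977 bp downstream, past the end of the gene, and the other, chr16:16865160-16865658, was centred 1424 bp upstream. Vpreb1 (chr16:16868401-16869255) lies upstream of Igll1, with its TSS 5270 bp from that of Igll1 and 4415 bp of sequence between the genes. The upstream distal peak of Igll1 thus lay between them, 3846 bp from the TSS of Vpreb1.

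The peak centre nearest to the Vpreb1 TSS was 1563 bp upstream and belonged to Top3b, a DNA topoisomerase gene on the opposite strand whose own TSS was 1481 bp from that of Vpreb1. That peak, chr16:16870569-16871067, was the promoter peak of Top3b. Within 50 kb of the Vpreb1 TSS there were 8 peak centres, and the same 8 peaks were counted around Igll1, so the region was not without open sites. The median protein-coding gene had 6 peak centres in such a window. For the paralogs, Vpreb2 had 2 distal peaks, the nearer one 6354 bp from its TSS, and no promoter peak, and Vpreb3 had 3 peaks, of which 1 was a promoter peak.

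The peak between Igll1 and Vpreb1 is shown by its central 200 bases, chr16:16865309-16865508 on the plus strand. Capitals mark the only motif match in it, a C/EBP-type match.
Igll1 upstream distal peak: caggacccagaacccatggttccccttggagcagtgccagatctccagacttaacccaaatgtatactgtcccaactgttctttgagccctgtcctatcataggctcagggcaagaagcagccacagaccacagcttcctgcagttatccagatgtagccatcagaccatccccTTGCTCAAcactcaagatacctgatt

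**Figure D2:**
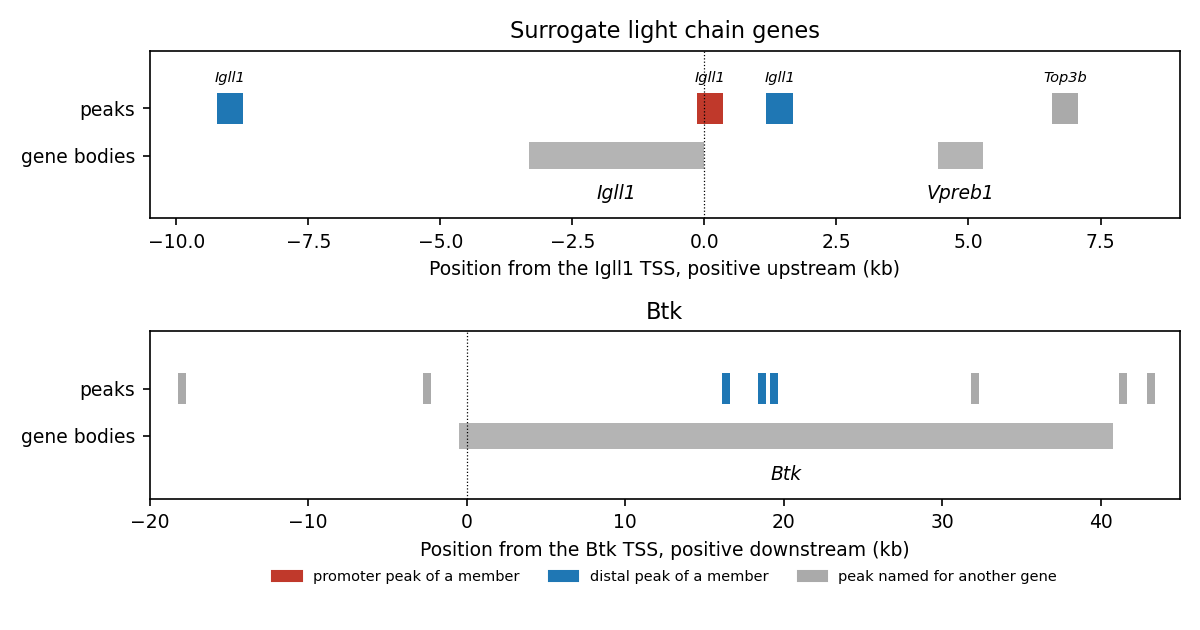
Peaks and gene bodies at the surrogate light chain genes, upper panel, and at Btk, lower panel, with positions in kb from the TSS of Igll1 and of Btk. Coloured boxes are peaks to scale and grey bars gene bodies. The nearest peak to Vpreb1 is the Top3b peak 1563 bp from its TSS, and the nearest peak to the Btk TSS, 2514 bp upstream, is named for another gene.

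The 2 signalling subunits each had a promoter peak but differed in the number of distal peaks. Cd79a (chr7:24897497-24901858, plus strand) had 2 peaks, a promoter peak at chr7:24897123-24897621, 139 bp upstream of the TSS by the annotation in the list, and a distal peak at chr7:24896222-24896720, 1040 bp upstream. Their centres were 901 bp apart. Another peak, chr7:24901822-24902320, overlapped the 3′ end of Cd79a but was named for the neighbouring gene Arhgef1, and its centre lay outside Cd79a. Cd79b (chr11:106311341-106314562, minus strand) had 6 peaks, a number that 19.0% of protein-coding genes reached. Its promoter peak, chr11:106314344-106314842, was centred 31 bp upstream of the TSS.

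Distal peaks of Cd79b were found on both sides of the gene and none had its centre inside it. Downstream, 2 were centred 4305 and 6229 bp from the TSS in intergenic sequence. Upstream, 3 were centred 10471, 11181 and 15326 bp from the TSS, all inside Scn4a (chr11:106317545-106365559), which encodes a sodium channel of skeletal muscle. The former 2 lay in intron 18 and the last in intron 14 of the 23 introns of Scn4a, where the nearest promoter in the list was nonetheless that of Cd79b. Cd79a and Cd79b had 15 and 17 peak centres within 50 kb of the TSS, whatever gene they were named for, and 6.96% and 3.53% of protein-coding genes had as many.

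The surface proteins differed in the same way. Ms4a1 (chr19:11249679-11266149, minus strand) had 3 peaks, a promoter peak at chr19:11266008-11266506, 106 bp upstream of the TSS, and distal peaks 5658 bp upstream and 21706 bp downstream. No peak centre lay in its 16471 bp gene body. All 3 peaks were inside a long non-coding RNA gene on the opposite strand, 4930526L06Rik (chr19:11196817-11299884), and both distal peaks were annotated to intron 1 of its 2 introns. Only 5 peak centres lay within 50 kb of the Ms4a1 TSS, the lowest number among the 9 genes and the only one below the median of 6.

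Cd22 (chr7:30865404-30880342, minus strand) had 7 peaks, as many as 15.2% of protein-coding genes, and was the only member with 2 promoter peaks. One, chr7:30878843-30879341, was centred 64 bp upstream of the start of the shorter transcript. The other, chr7:30880072-30880570, was centred 21 bp downstream of the start of the longer transcripts, and the centres were 1229 bp apart. A distal peak 5741 bp downstream of the shorter transcript's start lay on exon 5 of 14, the only distal peak of any member on an exon. The other 4 distal peaks formed an upstream row, at 7412, 10529, 11563 and 15840 bp from the start of the longer transcripts, in intergenic sequence, and the nearest of these lay on a LINE repeat of the L1MB8 family. Cd22 thus had peaks over its start sites, in its body and upstream of it.

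Of the kinases, Blk had the most peaks of the set and Btk had 3, none at its promoter. Blk (chr14:63372837-63417187, minus strand) had 10 peaks, a number reached by 8.16% of protein-coding genes. Its promoter peak, chr14:63416885-63417383, was centred 53 bp downstream of the TSS. Upstream, 2 distal peaks were centred at 1411 and 2418 bp. Within intron 1 of 12 there were 3 more, at 3403, 5473 and 28004 bp downstream, followed by 1 in intron 6 at 35149 bp and 1 in intron 10 at 39594 bp. The peak at 44489 bp lay at the transcription termination site, within the neighbouring non-coding gene Gm36165, and the peak at 59028 bp lay beyond the gene, within Gm4151 by RefSeq and on a MER91B repeat. Peaks were therefore found from the upstream side of Blk to past its end, with no centre between 5473 and 28004 bp downstream.

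Btk (chrX:134542334-134583628, minus strand, TSS at 134583140) had 3 peaks and no promoter peak. Its peaks were centred 16352 bp downstream of the TSS, in intron 4, and 18622 and 19403 bp downstream, in intron 5 of 18. The latter 2 had centres 781 bp apart. One more centre in the body, that of chrX:134550821-134551319 in intron 13, was named for Timm8a1, a mitochondrial import protein gene. The nearest peak to the TSS was 2514 bp upstream at chrX:134585405-134585903, the promoter peak of the ribosomal protein gene Rpl36a on the opposite strand. With any peak within 500 bp of any curated RefSeq start counted, whatever its name, 7 of the 9 members and 60.4% of protein-coding genes were positive, and Btk and Vpreb1 remained the members without one. The central 200 bases of the middle Btk peak, chrX:134564418-134564617 on the plus strand, are shown as the Btk element with the most motif families in its full peak, with the PAX5-type match in capitals.
Btk intron 5 peak: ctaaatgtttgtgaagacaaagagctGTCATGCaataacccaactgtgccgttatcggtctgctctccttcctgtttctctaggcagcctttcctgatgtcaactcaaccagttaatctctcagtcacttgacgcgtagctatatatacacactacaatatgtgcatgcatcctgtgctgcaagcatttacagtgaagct

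The adaptor gene Blnk (chr19:40928927-40994221, minus strand) had 8 peaks, a number reached by 12.2% of protein-coding genes. Its promoter peak, chr19:40994037-40994535, was placed 249 bp downstream of the TSS and in exon 1 of 17 by the list, but 65 bp upstream of the TSS in the RefSeq release used here, which starts the gene 314 bp further downstream. Distal peaks were centred 1567, 4534 and 5196 bp upstream in intergenic sequence. In the gene, 2 were centred at 16370 and 17200 bp in intron 1 of 16, 1 at 23872 bp in intron 2 on a B4A SINE repeat and 1 at 31227 bp in intron 4. The promoter peak held an octamer match, shown with 30 bases of the minus strand, chr19:40994333-40994362, and capitals for the match.
Blnk octamer: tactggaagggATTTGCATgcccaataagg

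**Figure D3:**
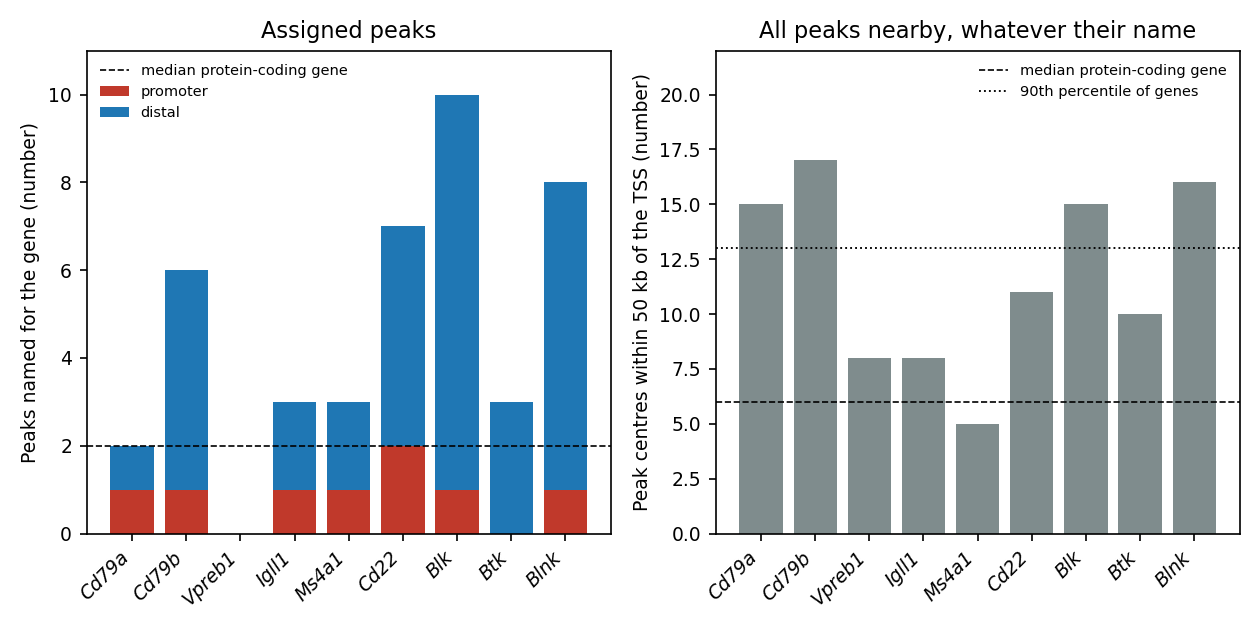
Number of peaks named for each gene, divided into promoter and distal peaks, left panel, and number of peak centres within 50 kb of the TSS whatever their name, right panel. The dashed line is the median of 21000 protein-coding genes, 2 in the left panel and 6 in the right, and the dotted line the 90th percentile, 13. Blk has the most named peaks, 10, and Vpreb1 has 0.

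Over all protein-coding genes the median number of named peaks was 2 and the upper quartile was 4. The members ranged from 0 to 10 with a median of 3. Of the 9 genes, 7 had more than the median gene and 4, namely Cd79b, Cd22, Blk and Blnk, more than the upper quartile. In the windows of 50 kb on either side of the TSS, 8 of 9 genes exceeded the median of 6 and 5 exceeded the upper quartile of 10. The 2 measures did not rank the genes alike. Cd79a had only 2 named peaks but 15 centres within 50 kb, most of them named for neighbouring genes, whereas Cd22 had 7 and 11.

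Peak centres fell in the body of 4 of the 9 genes, with 6 in Blk, 4 in Btk, 4 in Blnk and 3 in Cd22. These 17 centres in 194 kb of gene sequence gave 0.876 per 10 kb, and over all protein-coding genes the same ratio was 0.462 per 10 kb. The 17 included the promoter peaks of Blk and Cd22. Each ratio pools its genes, so that long genes weigh most, and the comparison was not adjusted for gene length. No centre fell in the body of the other 5 members, which included Ms4a1, a gene longer than Cd22.

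The 34 distal peaks were divided between 15 upstream and 19 downstream of the TSS. They were centred 1040 to 59028 bp away with a median of 10855 bp, against 22261 bp for all 71072 distal peaks in the list. Within 20 kb of the TSS there were 26 of the 34 (76.5%), against 47.0% of all distal peaks. Introns held 17 of them and intergenic sequence 15, shares close to the 48.0% and 44.6% of all distal peaks, with 1 on an exon and 1 at a termination site. By RefSeq gene bodies, 13 lay in the gene they were named for, 7 in another gene and 14 in no gene. Repeats were annotated for 3 of the 34 (8.82%), against 17.9% of all distal peaks. The members' distal peaks were thus nearer to their genes than distal peaks as a whole, by counts that carry no test.

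Some of the peaks stood close together. The centre of the next peak was within 1000 bp for 10 of the 42 (23.8%), against 13.2% of all peaks, and these formed 5 pairs in 4 genes. The pairs were the promoter and upstream peaks of Cd79a, 901 bp apart, the peaks of Cd79b in intron 18 of Scn4a, 710 bp apart, the Btk pair in intron 5, and 2 pairs of Blnk, 830 bp apart in intron 1 and 662 bp apart upstream. The median distance to the next peak was 1870 bp for the members and 4599 bp over the list.

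The 8 promoter peaks shared a base composition that the choice of genes did not use. The CpG ratio compares the number of CpG dinucleotides with the number that the content of C and G would give, and it is high in CpG islands. It was 0.343 in the promoter peak of Cd79a, 0.217 in that of Cd79b, 0.0794 in that of Igll1 and 0.132 in that of Ms4a1. The peaks of Cd22 had 0.218 and 0.312, that of Blk 0.143 and that of Blnk 0.264. Their median was 0.217, against a median of 0.778 and a lower quartile of 0.606 over all 13171 promoter peaks, so that 8 of 8 lay below the lower quartile. Only 10.3% of all promoter peaks had a ratio at or below that of Cd79a, the highest of the members. GC content was 48.1% to 57.7% with a median of 52.4%, and the median of all promoter peaks was 63.3%. The distal peaks of the members were closer to the rest, with a median CpG ratio of 0.174 against 0.220 and a median GC content of 49.5% against 47.7%.

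**Figure D4:**
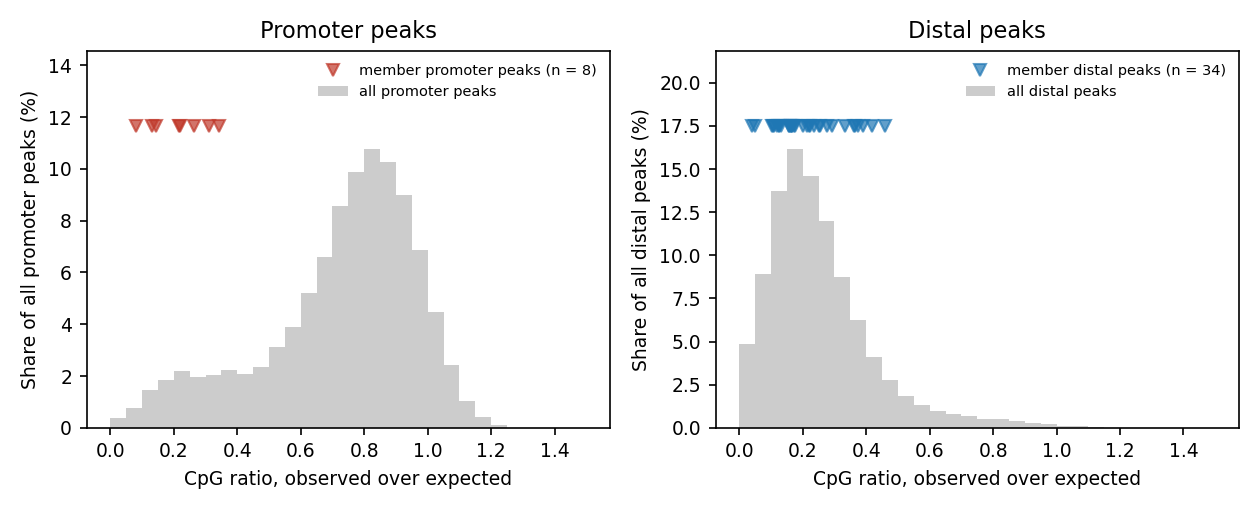
CpG ratio, observed over expected, of the members' promoter peaks, left panel, and distal peaks, right panel. Grey bars give the share of all peaks of that kind in steps of the ratio, with values above 1.5 in the last step, and triangles mark the members' peaks at an arbitrary height. The 8 promoter triangles lie between 0.0794 and 0.343, to the left of the mode of all promoter peaks.

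Sequence motifs were searched in the 499 bp of each peak on both strands, as fixed strings in which N stands for any base. A match describes letters and does not show that a factor was bound. The families were EBF1 (TCCCNNGGG) and PAX5 (GCNTGAC), which act in the B lineage, the E-box CAGGTG and another kind of E-box, CAGCTG, which are both bound by E proteins, and the octamer (ATGCAAAT), bound by POU factors. Further families of blood cells were PU.1 (GAGGAAGT), ETS factors (CCGGAAGT), composites of an ETS and an IRF site (GGAANNGAA), RUNX factors (TGTGGTT) and Ikaros (TGGGAA). The rest were MEF2 (TATTTATA), NF-kB (GGGANTTTC), FOXO factors (TGTTTAC), the string AGATAA for erythroid and other GATA factors, C/EBP factors (TTGCNNAA) and the insulator protein CTCF (CNAGNNGGC). Strings that share letters, such as GGAA in PU.1, ETS and ETS-IRF, could match the same bases and were counted separately.

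In the promoter peaks the E-box CAGGTG was the most frequent, in 6 of 8 peaks (75%) against 31.3% of all promoter peaks. The peaks without it were those of Cd79b and the upstream start of Cd22. EBF1-type matches were found in 4 of 8 (50%), in Cd79b, Igll1, Ms4a1 and the downstream start of Cd22, against 15.0%. PAX5-type matches, the other B lineage family, were found in 2 of 8 (25.0%), in Igll1 and the downstream start of Cd22, against 18.5%. The octamer was found in 2 of 8 (25.0%), Cd79b and Blnk, against 1.94%. The GATA string was also found in 2 of 8 (25.0%), the downstream start of Cd22 and Blnk, against 8.66%. CAGCTG and Ikaros-type matches were each found in 3 of 8 (37.5%), against 26.1% and 31.3%, and PU.1 and ETS-IRF matches each in 1 of 8 (12.5%), against 4.79% and 10.8%. MEF2, NF-kB, FOXO and C/EBP matches were found in 0 of 8, against 0.896%, 1.53%, 3.42% and 11.6%. Matches of CTCF type were found in 1 of 8 (12.5%), that of Igll1, against 44.6%, and ETS matches in 0 of 8 against 8.61%. No family was present in all 8 peaks, and the upstream Cd22 peak held none of the 16.

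Since the members' promoter peaks were poor in CpG, the shares were also taken over the 1359 promoter peaks with a CpG ratio no higher than that of Cd79a, a subset chosen after the values were seen. There CAGGTG was found in 35.8%, EBF1-type matches in 12.2%, PAX5-type matches in 16.04%, the octamer in 3.02%, the GATA string in 22.9%, CTCF-type matches in 28.7% and ETS matches in 1.55%. The ETS share of that subset was thus far nearer to 0, and the GATA share nearer to the members' 25.0%, than those of all promoter peaks, while the shares of CAGGTG, EBF1 and the octamer stayed below those of the members. RUNX-type matches, in 2 of 8 member peaks, were in 5.88% of all promoter peaks and 14.9% of the subset.

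In the windows of 250 bases before a start site, of which 6 members had one in the RefSeq table, CAGGTG was found for 5 of 6, all but Btk, against 17.2% of the 32851 windows of the table. The matches of Cd79a, Igll1, Cd22 and Blnk were the same bases already counted in their promoter peaks. Only that of Vpreb1, which had no peak, was not among them. The octamer was found for 1 of 6, Blnk, against 1.60%, and was again the match in its promoter peak. Cd79b, Ms4a1 and Blk had no window, and the promoter peak of Cd79b held no CAGGTG. The windows are therefore not a separate line of evidence from the peaks.

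For CAGGTG and EBF1, the distal peaks of the members lay nearer to the rest of the list than their promoter peaks did. CAGGTG was found in 14 of 34 (41.2%) against 32.9% of all distal peaks, and PAX5-type matches in 6 of 34 (17.6%) against 16.5%. EBF1-type matches were found in 7 of 34 (20.6%) against 8.88%, of which 4 were peaks of Blk, 2 of Cd22 and 1 of Cd79b. Fewer of the members' distal peaks than of all held RUNX-type matches, 3 of 34 (8.82%) against 18.0%, or PU.1 matches, 1 of 34 (2.94%) against 10.2%. No distal peak of the members held the octamer, against 3.63%. FOXO matches were in 5 of 34 (14.7%) against 7.25% and NF-kB matches in 2 of 34 (5.88%) against 1.96%. CTCF-type matches were in 6 of 34 (17.6%) against 27.7% and CAGCTG in 8 of 34 (23.5%) against 30.4%. Shares were 41.2% against 38.2% for Ikaros, 14.7% against 17.0% for ETS-IRF and 20.6% against 20.7% for C/EBP. ETS and MEF2 matches were each in 1 of 34 (2.94%), against 1.04% and 3.00%. The 3 peaks of Btk held GATA matches without exception, and GATA matches over all members were in 8 of 34 (23.5%) against 26.9%. With so few peaks each of them moves a share by several percent, and the peaks of 1 gene are not independent of each other.

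**Figure D5:**
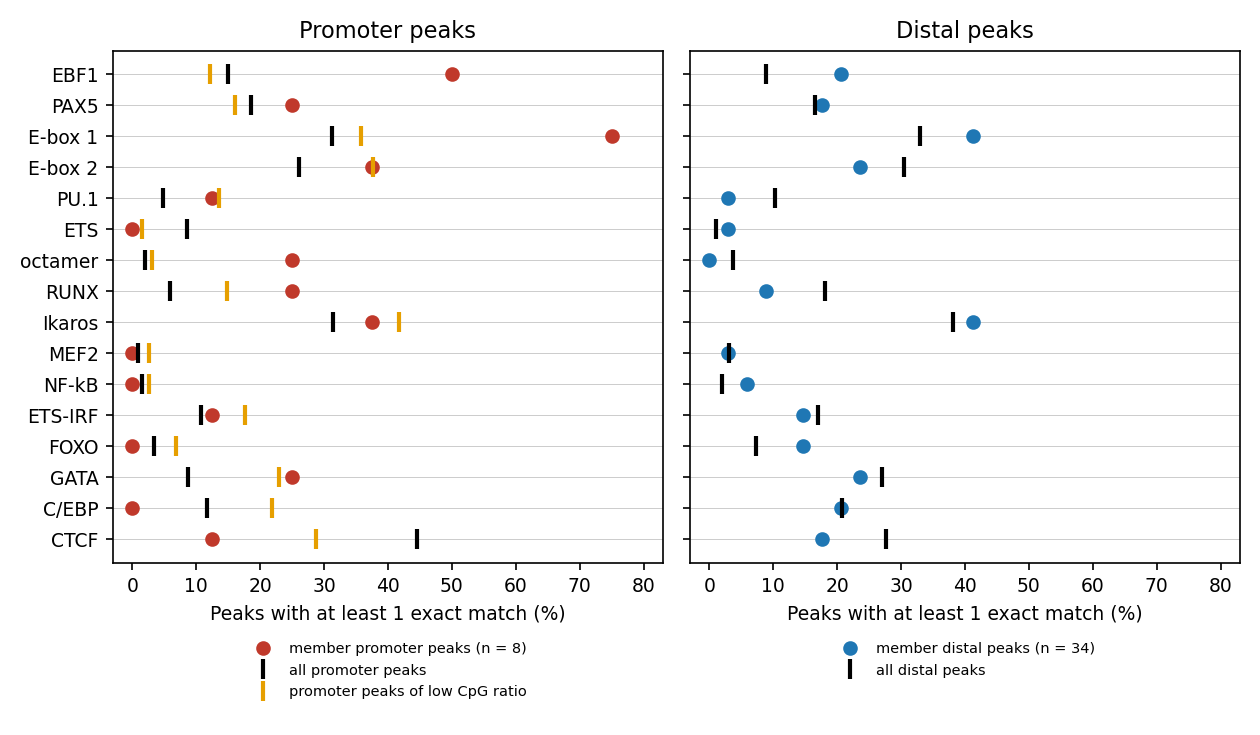
Share of peaks with at least 1 exact match to each motif family, for promoter peaks, left panel, and distal peaks, right panel, in percent. Dots are the members' peaks, black marks all peaks of that kind and orange marks the 1359 promoter peaks of low CpG ratio. E-box 1 is CAGGTG and E-box 2 is CAGCTG. The dots for E-box 1, EBF1 and the octamer lie to the right of both marks in the left panel.

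The other genes of the pathway were described from a list of 22 that encode kinases, phosphatases, coreceptors and adaptors of B cell receptor signalling. All 22 had at least 1 peak, against 77.3% of protein-coding genes, and 21 had a promoter peak, against 54.8%. The exception, named after the values were seen, was Vav2, a guanine nucleotide exchange factor gene whose nearest peak was centred 512 bp from its TSS and so just outside the limit. The list had 262 peaks, 27 promoter and 235 distal. The median was 11.5 per gene, against 3 for the 9 members and 2 for all protein-coding genes. Prkcb, which encodes a protein kinase C isoform, had the most with 29, and Lyn, a Src family kinase, and Ptpn6, a phosphatase recruited by CD22, the fewest with 3 each. These genes were also longer, with a median of 79.7 kb against 14.9 kb. The CpG ratio of the promoter peak nearest to the TSS had a median of 0.358 over the list, from 0.133 to 0.866, a range that reached well above the members.

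For comparison by role, 9 genes of the T cell receptor complex and its proximal signalling were counted in the same way. At least 1 peak was found for 7 of them, a share close to the 77.3% of protein-coding genes, and a promoter peak for 6, against 54.8%, with 43 peaks in all, 8 promoter and 35 distal, and a median of 3. These totals differed from the 42, 8 and 34 of the B cell receptor genes by 1 or none. Cd247, the zeta chain, had the most with 12. Cd3g, a signalling subunit, and Ptcra, which pairs with the beta chain in the precursor T cell as the surrogate light chain does with the heavy chain, had 0. The promoter CpG ratios were low here too, with a median of 0.244 and a range of 0.224 to 0.362.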

How the data were processed

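ATAC-seq libraries of 12 samples, 2 replicates of each of 6 sorted cell types, were aligned to mm10 and peaks called by the authors with ENCODE's ATAC-seq pipeline. Per the study's methods, the reproducible peak-list of each cell type was concatenated, reduced by chromVAR to peaks without overlap, and annotated by HOMER (version 4.10.2 in the submitters' processing notes). The score column deposited by the authors was 0 in every peak and was not used. Positions and TSS distances of the peaks, each 499 bp wide, were used as deposited, without normalization.

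Members were found by the gene name of each peak. Gene bodies, start sites and sequence were taken from NCBI RefSeq release 108 of GRCm38.p6, with 1 RefSeq Select start per gene. The sequence window printed for Cd22 precedes the start of its shorter transcript, not this one. The distances of 32 of the 42 peaks differed from RefSeq by at most 2 bp. Motifs were matched exactly on both strands. The members and lists were chosen with earlier results of these data known. All 9 members are named, list genes with the most and fewest peaks, and genes that overlap or neighbour a member. A gene outside this rule is marked in the text. The motif search, a search for the nearest position and the GC content were tested on made-up data with known answers. The counts of peaks per gene and per window were not tested in this way. Python 3.11.15, numpy 2.4.6, pandas 2.3.3 and matplotlib 3.10.9 were used.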

Additional observations from a re-analysis of the deposited data

How the results depend on the processing

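Of 21 alternatives over 8 results, 16 stayed within 1.5 times the value reported. With the promoter limit at 100 bp, the promoter peaks of the 9 members fell from 8 to 4 and the members with one from 7 to 3. By the distances in the list, those of Cd79a, Igll1, Ms4a1 and Blnk were centred farther out. That of Blnk was 65 bp from the TSS in the RefSeq release used here, so its loss depended on the annotation. With all peaks within 50 kb of a TSS counted, whatever their name, the members had 105 peaks in place of 42, or 97 different ones, as Vpreb1 and Igll1 share 8. The 115 pairs of peak and motif family, of 672 possible, became 57 in the central 200 bp and 518 with 1 mismatch, so motif counts depend on the match rule. A stricter score was not tried because the score is 0 in every peak. No paired analysis was possible because the list holds no column per sample, and for the same reason no replicate could be left out. Depth per peak is unknown, and a gene without a peak may have sites that the list does not hold.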
